A study of Mus musculus with 15 samples.

Results

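Trophoblast lineage regulators are transcription factors that set up or maintain the outer, placenta-forming lineage of the mouse embryo. The 9 genes described here, Tead4, Cdx2, Gata3, Eomes, Elf5, Tfap2c, Ets2, Gata2 and Hand1, were chosen by name, with earlier results of these data known. Each was taken as its gene span in the GENCODE M1 annotation of the mm9 genome, widened by 20 kb on each side. All 9 were found among 22350 protein-coding genes on chromosomes 1 to 19 and X, Tfap2c under its older symbol Tcfap2c, and their windows were between 44.1 kb (Hand1) and 116.5 kb (Tead4) long.

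The windows were read in peak lists of 2 histone marks, H3K27ac, an acetylation of active enhancers and promoters, and H3K4me1, a methylation of enhancers and of the flanks of promoters. The cells were mouse embryonic stem cells (ESCs, the single line J1, strain 129SV) and expanded potential stem cells (EPSCs) converted from ESCs and kept in either of 2 published media, called D-EPSCs and L-EPSCs. Each state had 2 chromatin immunoprecipitation (ChIP) samples per mark and 1 input sample, 15 in all, but 1 peak list per state and mark, so no value below has a replicate check and no test between states could be run. In bulk lists of this kind, fewer cells with a mark and less of the mark per cell cannot be told apart.

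All 3 media held leukemia inhibitory factor (LIF) at 1000 units/mL and the GSK3 inhibitor CHIR99021 at 3 µM. ESC medium also held fetal bovine serum (15%) and the MEK inhibitor PD0325901 at 1 µM. The D-EPSC medium held KnockOut Serum Replacement (KSR, 5%), dimethindene maleate at 2 µM and minocycline hydrochloride at 2 µM, without PD0325901. The L-EPSC medium held KSR (20%), PD0325901 at 1 µM, the Src family inhibitor A-419259 at 0.3 µM, the tankyrase inhibitor XAV939 at 5 µM, JNK inhibitor VIII at 4 µM and the p38 inhibitor SB203580 at 10 µM. Serum, MEK inhibition and the other agents therefore differ together between the states. ESCs were grown on mouse fibroblast feeder cells or on gelatin, and per the study's methods both EPSC states were kept without feeders for several passages before profiling.

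In the preimplantation embryo, outer cells keep the Hippo pathway off, so that the coactivators YAP1 and WWTR1 enter the nucleus and join the DNA-binding factor TEAD4. TEAD4 and GATA3 then help to switch on CDX2, which represses the pluripotency program in trophectoderm. EOMES, ELF5, TFAP2C and ETS2 maintain trophoblast stem cells, and GATA2 and HAND1 act in their differentiated descendants, among them trophoblast giant cells. ESCs do not normally enter this lineage, and wider developmental potential is the property for which EPSCs were proposed. Several of the 9 genes also work elsewhere in the embryo: Eomes in gastrulation, Hand1 in the heart and Gata2 in blood.

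The labelled cell type was checked on 7 pluripotency genes (Pou5f1, Sox2, Nanog, Esrrb, Klf4, Zfp42 and Tfcp2l1). An H3K27ac peak lay within 1 kb of the start site in 6 of 7 of them in each state, and their windows summed to 223.6 kb of H3K27ac in ESCs, against 125.9 kb in D-EPSCs and 135.7 kb in the L-EPSC list. None of 10 fibroblast genes had H3K27ac at the start site in any state. Their windows summed to 16.9 kb in ESCs, the state that may have had feeders, 4.305 kb and 2.93 kb in the EPSC states, with Thy1, Twist1, Twist2, Prrx1 and Dcn at 0 in all 3 lists, and most of the ESC value (12.7 kb) lay at Col1a1. The H3K27ac lists were of unequal length, with 64342 peaks for ESCs, 32782 for D-EPSCs and 26966 for L-EPSCs, while the H3K4me1 lists held 102751 to 107222 peaks. Depth and peak thresholds are unknown from the lists, and their part in this difference was not tested.

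H3K27ac at the 9 regulators was concentrated at a single gene in ESCs and sparse in both EPSC states. The bases under H3K27ac peaks in the 9 windows summed to 76.6 kb in the ESC list, 18.3 kb in the D-EPSC list and 9.50 kb in the L-EPSC list. Tead4 alone held 50.9 kb of the ESC sum. The median window held 1.69 kb, 0.655 kb and 0.501 kb in that order, against 2.02 kb, 0.893 kb and 0.404 kb for all protein-coding genes, so the median member held less than the median gene in ESCs and D-EPSCs and slightly more in L-EPSCs. Cdx2 and Elf5 had no H3K27ac peak in any list. By list, 7, 5 and 5 of the 9 members had a peak, against 67.4%, 63.3% and 56.1% of all protein-coding genes, in the same order. A window without H3K27ac was thus common across the genome.

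H3K4me1 gave another picture. Every member had H3K4me1 peaks in every list. Most protein-coding genes had them too (81.3%, 84.4% and 85.9% for the ESC, D-EPSC and L-EPSC lists), so presence alone sets the members little apart. The sums over the 9 members were 198.6 kb in ESCs, against 151.9 kb in D-EPSCs and 129.7 kb in the L-EPSC list. The median window held 21.8 kb, 17.4 kb and 13.3 kb, against 8.82 kb, 8.22 kb and 7.24 kb for all genes. The median member thus held more H3K4me1 than the median gene in each state, although Elf5 in all 3 states and Ets2 in both EPSC states held less. Their windows were of similar length to others, with a median of 53.1 kb against 55.4 kb for all genes. The plot of covered bases by list shows how far Tead4, with the longest window, stood from the other 8 genes for H3K27ac in ESCs. H3K4me1 in ESCs covered 45.3% of its window, against 54.1% at Tfap2c, 49.3% at Hand1, 49.1% at Eomes and less at the others.

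**Figure D1:**
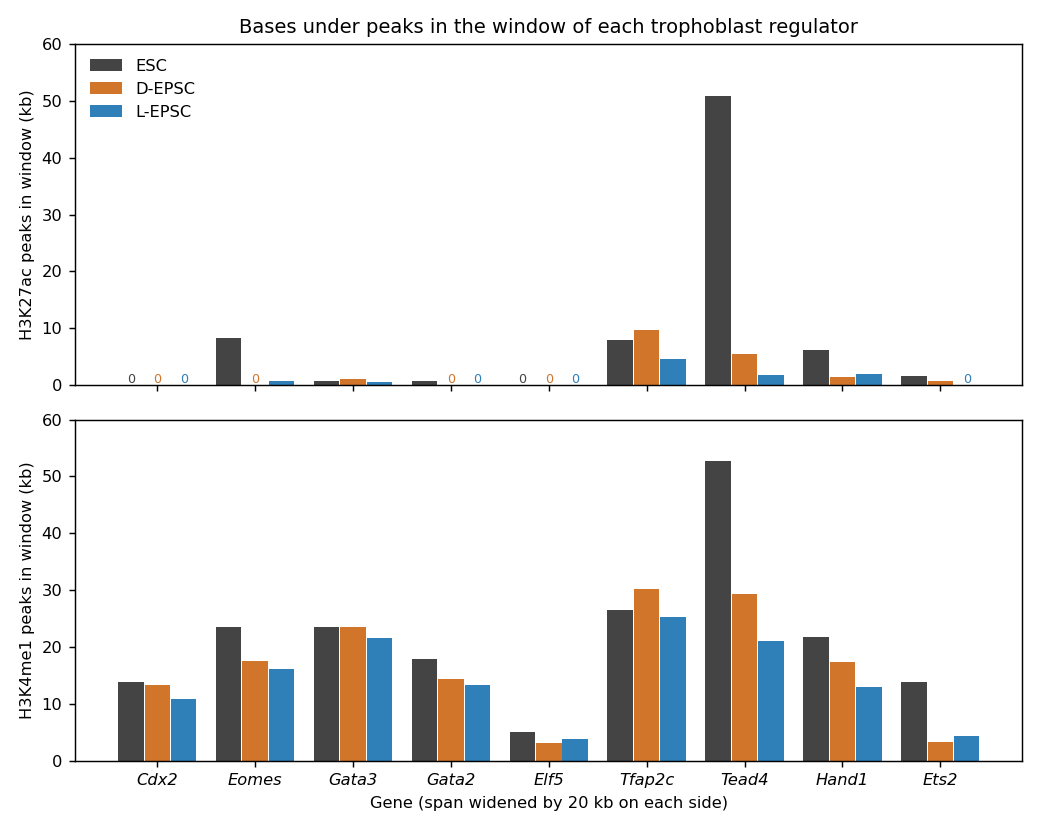
Bases under H3K27ac peaks (top) and H3K4me1 peaks (bottom) in the window of each gene, in kb, with 1 bar per peak list (ESC, D-EPSC and L-EPSC) and no error bars because each list is single. H3K27ac reached 50.9 kb at Tead4 in ESCs and was 0 at Cdx2 and Elf5 in all 3 lists, while H3K4me1 was present at every gene.

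A gene was counted as lower in an EPSC state when 50% or less of its ESC covered bases were under peaks there, and as higher when at least 2 times as many were. Of the 7 members with H3K27ac in either list, 5 (Eomes, Gata2, Tead4, Hand1 and Ets2) were lower in D-EPSCs, against 58.8% of all genes with bases in either list. The same 5 were lower in L-EPSCs, against 76.5% of all genes. No member was higher in D-EPSCs (8.5% of all genes) or in L-EPSCs (4.33%). Read against these shares, the counts of lower members do not set the 9 genes apart from the genome. With lists cut to equal covered bases, Tead4 alone was lower in either state, and 1 member (Tfap2c) was higher in D-EPSCs and 4 (Eomes, Gata3, Tfap2c and Hand1) in L-EPSCs. That setting keeps the widest peaks, so by construction it retains broad ESC domains and drops narrow ones.

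For H3K4me1, Ets2 was the 1 member of 9 that was lower in D-EPSCs (5.17% of all genes), and Tead4 and Ets2 were the 2 that were lower in L-EPSCs (9.27%). No member was higher in D-EPSCs (10.9% of all genes) or L-EPSCs (12.3%). Over the 9 members the median log2 ratio of H3K4me1 bases, EPSC over ESC, was -0.32 in D-EPSCs and -0.42 in L-EPSCs, and -0.13 and -0.31 over all genes. For H3K27ac the 5 members with bases in both lists had medians of -1.37 in D-EPSCs and -1.65 in L-EPSCs, against -1.18 and -1.69 for all genes. The members spread widely around those medians, as the plot of the ratios shows.

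**Figure D2:**
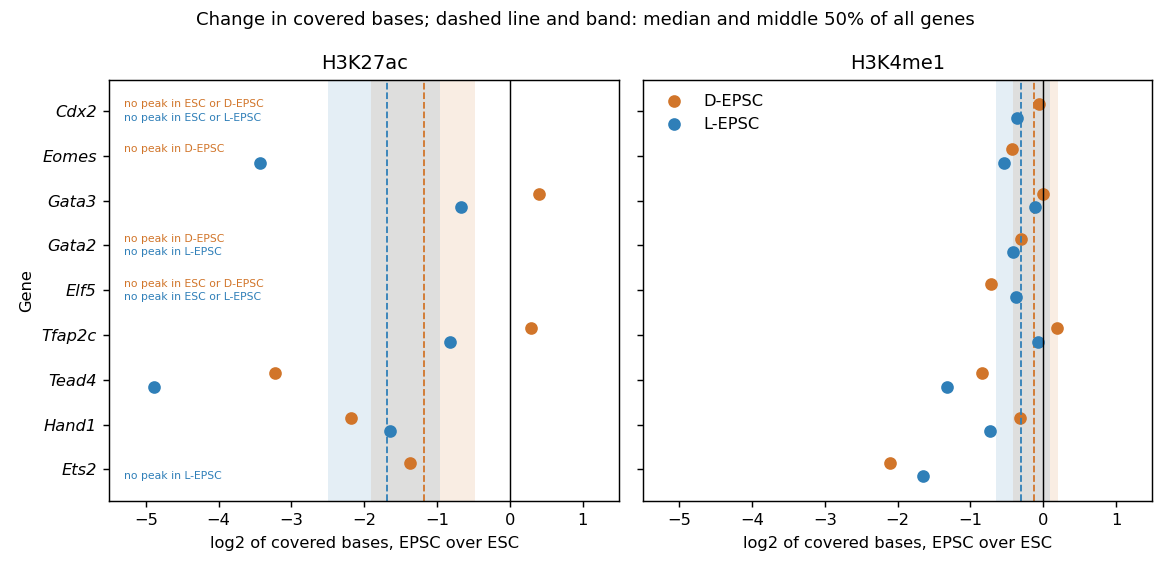
Log2 ratio of covered bases in D-EPSCs (orange) and L-EPSCs (blue) over ESCs for each gene, for H3K27ac (left) and H3K4me1 (right), with 1 point per gene and state. Dashed lines and bands are the median and the middle 50% of all genes with peaks in both lists. Tead4 lay far to the left for H3K27ac (-3.22 and -4.89) and Ets2 for H3K4me1 (-2.11 and -1.65). Gata3 (0.40 and -0.67) and Tfap2c (0.29 and -0.82) lay to the right of the band for H3K27ac in D-EPSCs and L-EPSCs.

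Peaks at the start site followed the same split between the marks. An H3K27ac peak lay within 1 kb of the start site of 3 members in ESCs (Eomes, Tead4 and Ets2), 1 in D-EPSCs (Ets2) and none in L-EPSCs, against 35.7%, 35.3% and 28.8% of all start sites. An H3K4me1 peak lay there in 8 of 9 members in each state, against 57.5% for ESCs, 67.1% for D-EPSCs and 68% for L-EPSCs. Elf5 was the exception in all 3 for the outermost start, the one used here, while with any of its 7 annotated transcript starts all 9 members had H3K4me1 there in each state. At the very start of transcription, the first base was under H3K4me1 in Cdx2, Gata3 and Hand1 in all states. In Eomes, Gata2 and Tfap2c it was under H3K4me1 in both EPSC states but not in ESCs. Their nearest ESC peak was 27 bp, 143 bp and 295 bp away. The share of all genes at the first base was not computed, and within 1 kb it was higher in both EPSC states than in ESCs.

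Tead4 (ENSMUSG00000030353.9, chr6:128174306-128250841, minus strand) encodes the TEAD-family factor through which YAP1 and WWTR1 bind DNA. Its window held 16 H3K27ac peaks covering 50.9 kb in ESCs, 4 peaks covering 5.45 kb in D-EPSCs and 2 peaks covering 1.72 kb in L-EPSCs. The log2 ratio over ESCs was -3.22 in D-EPSCs and -4.89 in L-EPSCs. Among all genes with peaks in both lists, 5.52% of 13323 had a ratio this low in D-EPSCs and 1.38% of 12095 did in L-EPSCs. By number of peaks the ratios were -2.00 and -3.00.

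The acetylation of Tead4 in ESCs filled much of the gene. Its widest peak, at chr6:128222122-128242483, ran for 20362 bp from 8358 to 28719 bp downstream of the start site, over exons and introns. Within that stretch D-EPSCs held 3592 bp of H3K27ac and L-EPSCs 1717 bp. A further ESC peak of 12394 bp lay deeper in the gene (chr6:128203141-128215534), where D-EPSCs held 509 bp and L-EPSCs none. The start site itself was under an ESC peak of 2823 bp (chr6:128249448-128252270) with no counterpart in either EPSC list. Tead4 has 4 annotated transcript starts, and in D-EPSCs an H3K27ac peak lay within 1 kb of a start inside the gene.

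Methylation of Tead4 was retained over more of the same ground. H3K4me1 covered 52.7 kb in the ESC list, 29.4 kb in the D-EPSC list and 21.1 kb in the L-EPSC list (log2 ratio -0.84 and -1.32), and 7.01% of 17991 genes and 3.34% of 18051 genes had ratios as low. At the acetylated start site region of ESCs, H3K4me1 was present in all 3 states. The number of H3K4me1 peaks was not lower, with 10 in ESCs, against 14 in D-EPSCs and 12 in the L-EPSC list, and an ESC peak of 27.6 kb inside the gene stood as 5 separate peaks in each EPSC list. The share of H3K4me1 bases also under H3K27ac was 83.9% for ESCs, 18.5% for D-EPSCs and 8.15% for L-EPSCs.

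The 300 bases before the start site of Tead4, acetylated in ESCs only, show what lay under the start site peak. Capitals would mark CATTCC, the core of the TEAD recognition sequence, or any other motif searched, on either strand.
Tead4 before the start site, chr6:128250842-128251141, minus strand, mm9: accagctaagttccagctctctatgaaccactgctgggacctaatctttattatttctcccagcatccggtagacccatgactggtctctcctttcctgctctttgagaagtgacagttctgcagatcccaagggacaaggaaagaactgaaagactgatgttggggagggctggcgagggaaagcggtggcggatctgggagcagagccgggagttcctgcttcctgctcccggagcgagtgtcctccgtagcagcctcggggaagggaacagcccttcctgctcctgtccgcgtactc
The stretch held 11 CpG dinucleotides and none of the motif letters searched, so it has no capitals. A match or its absence describes letters and not binding of a factor.

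Among Hippo pathway genes and the TEAD paralogues of Tead4, the median held more H3K27ac than the median of all genes in all states. Windows were not matched for length, and Amot held none in any state and Vgll4 none in D-EPSCs. Of 11 (Yap1, Wwtr1, Lats1, Lats2, Amot, Amotl2, Nf2, Vgll4 and Tead1 to Tead3), 8 had H3K27ac at the start site in ESCs and 7 in each EPSC state (35.7%, 35.3% and 28.8% of all start sites, as above), with medians of 14.8 kb, 2.77 kb and 2.85 kb in the windows. Of the 10 with bases, 7 were lower in D-EPSCs (58.8% of all genes) and all 10 in L-EPSCs (76.5%). Tead1 held 56.0 kb, 36.4 kb and 19.7 kb, Nf2 45.3 kb, 18.5 kb and 11.2 kb, and Yap1 43.1 kb, 14.6 kb and 8.48 kb. The start sites of Tead1 and Tead2 carried H3K27ac in all 3 states, that of Tead3 in ESCs only, as did that of Tead4.

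Cdx2 (ENSMUSG00000029646.3, chr5:148112381-148118846, minus strand), the homeobox factor that defines trophectoderm, had no H3K27ac peak in its 46.5 kb window in any list. H3K4me1 covered 13.8 kb in the ESC list, 13.3 kb in the D-EPSC list and 10.8 kb in the L-EPSC list. Most of it was a single region from 798 bp upstream to 9403 bp downstream of the start site (chr5:148109443-148119644), of which 9422 bp, 7581 bp and 6948 bp were under peaks. The gene thus sat under H3K4me1 without acetylation in all 3 states, with log2 ratios of -0.06 and -0.35.

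Elf5 (ENSMUSG00000027186.8, chr2:103251845-103291146, plus strand), an ETS-family factor whose promoter is DNA-methylated in embryonic cells and unmethylated in trophoblast, was the least marked member. It had no H3K27ac peak, and H3K4me1 covered 5.01 kb of its 79.3 kb window in ESCs, against 3.04 kb in D-EPSCs and 3.88 kb in the L-EPSC list. The nearest H3K4me1 peak to the start site was 4149 bp, 4776 bp and 5129 bp away. An intronic region, chr2:103256621-103257526, was under H3K4me1 in both EPSC states (906 bp for D-EPSCs and 436 bp for L-EPSCs) and not in ESCs. It was the only H3K4me1 region of that class among the 72 in the 9 windows (1.39%, against 7.27% of regions across the genome). One more region, shared by all states, lay within the neighbouring gene Cat.

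Cdx2 and Elf5 are the contrast between H3K4me1 over the outermost start site and no mark there, and the 300 bases before each start are shown for that reason. Capitals mark the octamer ATGCAAAT, the POU-factor recognition sequence, at Cdx2 and the AP-2 letters GCCNNNGGC at Elf5.
Cdx2 before the start site, chr5:148118847-148119146, minus strand, mm9: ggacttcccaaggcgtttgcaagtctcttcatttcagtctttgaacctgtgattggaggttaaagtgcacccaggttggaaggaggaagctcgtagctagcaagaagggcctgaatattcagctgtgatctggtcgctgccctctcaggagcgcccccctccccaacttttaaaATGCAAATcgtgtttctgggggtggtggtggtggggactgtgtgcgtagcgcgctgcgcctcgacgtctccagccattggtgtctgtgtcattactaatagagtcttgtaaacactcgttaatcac
Elf5 before the start site, chr2:103251545-103251844, plus strand, mm9: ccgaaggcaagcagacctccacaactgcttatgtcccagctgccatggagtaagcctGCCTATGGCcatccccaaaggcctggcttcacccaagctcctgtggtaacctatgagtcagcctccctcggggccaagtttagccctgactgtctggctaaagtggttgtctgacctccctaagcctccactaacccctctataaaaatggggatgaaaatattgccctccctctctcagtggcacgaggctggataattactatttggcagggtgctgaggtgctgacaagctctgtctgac
Cdx2 had 12 CpG and a CpG observed-over-expected ratio of 0.595, and Elf5 had 3 CpG and a ratio of 0.139. Over 22344 start sites the ratio had a median of 0.478, with the middle 50% between 0.201 and 0.759. Elf5 was the only member below that range, and the other 8 lay between 0.371 (Gata3) and 0.836 (Ets2). The octamer occurred before 1.83% of start sites and the AP-2 letters before 16.4%. The other letters were searched on both strands too. The TEAD letters CATTCC, before 13.8% of start sites, were found at Gata3. The T-box letters TCACAC, before 13.5%, were found at Hand1. AGATAA for the GATA family was before 11.5% of start sites, TTTATG for CDX factors before 12.4% and CCGGAA for ETS factors before 15.1%, and none of these stood before any of the 9.

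Gata3 (ENSMUSG00000015619.9, chr2:9778705-9811661, minus strand), a zinc-finger factor that acts beside CDX2, was widely under H3K4me1 and barely acetylated. H3K4me1 covered 23.5 kb for ESCs, 23.5 kb for D-EPSCs and 21.6 kb for L-EPSCs. H3K27ac covered 0.795 kb, 1.05 kb and 0.501 kb in 2, 2 and 1 peaks, and no base was shared between the ESC list and either EPSC list. The log2 ratio over ESCs was 0.40 in D-EPSCs, and 91.8% of genes had one as low or lower. The L-EPSC ratio over ESCs was -0.67, but 0.06 in windows of 10 kb and 0.69 in windows of 50 kb. An intronic region of 591 bp, chr2:9782499-9783089, carried H3K27ac in both EPSC states (554 bp and 501 bp), 28572 to 29162 bp downstream of the start site. ESCs had a peak of 481 bp nearby, 27153 to 27633 bp downstream. Both lay nearer to the start site of 4930412O13Rik, another gene in the window. The 591 bp region was H3K4me1-positive in all 3 states, and 464 bp of it were acetylated in both EPSC states.

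Tfap2c (ENSMUSG00000028640.5, chr2:172375093-172384122, plus strand), which encodes the AP-2 gamma factor of trophoblast stem cells and of germ cells, was, beside Gata3, the only member with more H3K27ac in an EPSC state than in ESCs, and had far more of it than Gata3. H3K27ac covered 7.98 kb in the ESC list, 9.78 kb in the D-EPSC list and 4.53 kb in the L-EPSC list. The log2 ratio over ESCs was 0.29 in D-EPSCs, and 90.6% of genes had a ratio as low or lower. In L-EPSCs it was -0.82, and 78.5% of genes did. H3K4me1 covered 26.5 kb, 30.2 kb and 25.3 kb, the most of any member in both EPSC states.

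The acetylated regions of Tfap2c were not the same in the 3 states. A region from 6516 to 3079 bp upstream of the start site, chr2:172368577-172372014, carried 3438 bp of H3K27ac in D-EPSCs, a narrower 489 bp in L-EPSCs and none in ESCs, although H3K4me1 was present there in all 3. It was 1 of 2 regions of this class among the 41 H3K27ac regions of the 9 windows (4.88%, against 2.35% across the genome), and the other was the Gata3 intron. Farther upstream, across the edge of the window (chr2:172351581-172356430), whole peaks held 1998 bp in ESCs, against 3629 bp in D-EPSCs and 4349 bp in the L-EPSC list. Inside the window, which opens at -20 kb from the start site, they ended at -19.704 kb (ESC), -18.663 kb (D-EPSC) and -19.164 kb (L-EPSC). Downstream of the gene the order inside the window was otherwise, with 3948 bp, 2189 bp and 805 bp at chr2:172392138-172396085. The region chr2:172400965-172406613 also crosses the edge, and whole peaks held 4139 bp, 5304 bp and 2117 bp. Inside the window the ESC peak began at 25.872 kb and the D-EPSC peak at 26.217 kb, both reaching the edge, so ESCs held more there. The L-EPSC peak ran from 26.674 to 28.79 kb. The outermost start site had no H3K27ac peak within 1 kb in any list, while in L-EPSCs a peak lay within 1 kb of another annotated start.

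The stretches acetylated in both EPSC states and not in ESCs are shown for Tfap2c and Gata3, as the central 300 bases of the part common to D-EPSCs and L-EPSCs. Capitals mark the letters of any of the motifs searched.
Tfap2c upstream, both EPSC states, chr2:172371318-172371617, plus strand, mm9: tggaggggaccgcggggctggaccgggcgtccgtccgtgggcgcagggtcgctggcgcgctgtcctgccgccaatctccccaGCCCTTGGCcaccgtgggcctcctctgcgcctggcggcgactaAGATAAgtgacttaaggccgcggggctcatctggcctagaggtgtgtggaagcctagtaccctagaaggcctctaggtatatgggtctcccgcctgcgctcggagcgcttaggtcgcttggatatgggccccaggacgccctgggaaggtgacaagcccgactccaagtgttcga
Gata3 intron, both EPSC states, chr2:9782671-9782970, plus strand, mm9: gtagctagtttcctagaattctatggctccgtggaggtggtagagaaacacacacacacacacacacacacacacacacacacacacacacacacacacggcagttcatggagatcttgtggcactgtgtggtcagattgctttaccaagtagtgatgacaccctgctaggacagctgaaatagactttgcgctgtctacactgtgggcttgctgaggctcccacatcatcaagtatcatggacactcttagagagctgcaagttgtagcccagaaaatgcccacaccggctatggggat
The Tfap2c stretch found only in EPSCs held 25 CpG with an observed-over-expected ratio of 0.761, whereas the centres of all D-EPSC H3K27ac peaks had a median of 4 CpG and a ratio of 0.256 (middle 50% 0.135 to 0.476). It held 1 AP-2 match (GCCNNNGGC, 13% of peak centres) and 1 GATA match (AGATAA, 13%). The Gata3 stretch, which contains a run of CA repeats, held 4 CpG and no match.

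Eomes (ENSMUSG00000032446.8, chr9:118387330-118395250, plus strand), a T-box factor of trophoblast stem cells that also acts in gastrulation, was acetylated in ESCs in 8 peaks covering 8.26 kb. Of these, 5, among them the widest, lay nearer to the start site of the neighbouring gene Golga4. D-EPSCs had no H3K27ac peak in its window, and L-EPSCs had 2 peaks covering 0.765 kb. A log2 ratio could be given for L-EPSCs alone, at -3.43, and 9.36% of genes had one as low. With only the peaks nearest to Eomes it was -2.47. In ESCs the peaks began 452 bp after the start site and reached the edge of the window, the widest being an intergenic peak of 3748 bp that started 17150 bp downstream (chr9:118404480-118408227). H3K4me1 persisted, with 23.5 kb, 17.5 kb and 16.2 kb, and within the gene span it covered slightly more in D-EPSCs (5.12 kb) and L-EPSCs (4.82 kb) than in ESCs (3.88 kb).

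Ets2 (ENSMUSG00000022895.8, chr16:95923682-95942658, plus strand), an ETS-family factor downstream of FGF and MAP kinase signaling in trophoblast stem cells, differed most in H3K4me1. H3K4me1 covered 13.9 kb for ESCs, 3.22 kb for D-EPSCs and 4.425 kb for L-EPSCs. The log2 ratio was -2.11 in D-EPSCs, where 0.361% of 17991 genes had one as low, and -1.65 in L-EPSCs, where 1.31% of 18051 did. With lists of equal covered bases the ratios were -3.53 and -1.08. Covered bases were fewer in both EPSC states in every H3K4me1 region that ESCs had there, such as the region just upstream of the start site, with 1879 bp, 332 bp and 451 bp. H3K27ac covered 1.69 kb in ESCs and 0.655 kb in D-EPSCs, and none in L-EPSCs. The D-EPSC peak lay 66 bp from the start site, the only H3K27ac peak within 1 kb of the outermost start of any member in an EPSC state. With any annotated transcript start, Tead4 in D-EPSCs and Tfap2c in L-EPSCs had one too.

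Gata2 (ENSMUSG00000015053.8, chr6:88143885-88157024, plus strand), which drives placental lactogen genes in giant cells, carried 1 H3K27ac peak of 736 bp in ESCs, 20405 bp downstream of its start site, and none in the EPSC lists. That peak lay nearer to the start site of the neighbouring gene Dnajb8. H3K4me1 covered 17.8 kb in the ESC list, 14.4 kb in the D-EPSC list and 13.3 kb in the L-EPSC list. Hand1 (ENSMUSG00000037335.7, chr11:57642207-57646320, minus strand), a basic helix-loop-helix factor required for giant cells, was acetylated only downstream of the gene. H3K27ac covered 6.22 kb in ESCs, against 1.37 kb in D-EPSCs and 1.98 kb in the L-EPSC list (log2 ratio -2.19 and -1.65). Most of it lay in a region from 17067 bp downstream, chr11:57624776-57629253, with 4478 bp, 987 bp and 1636 bp. That region was nearer to the start site of the neighbouring gene Sap30l, and with only the peaks nearest to Hand1 the ratios were -2.20 and -2.33. Hand1 was the 1 member with H3K27ac in both EPSC states and more of it in L-EPSCs. H3K4me1 lay over its whole gene span in ESCs and covered 21.8 kb, 17.4 kb and 13.1 kb of the window.

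The map of the peaks shows the positions of both marks around each start site.

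**Figure D3:**
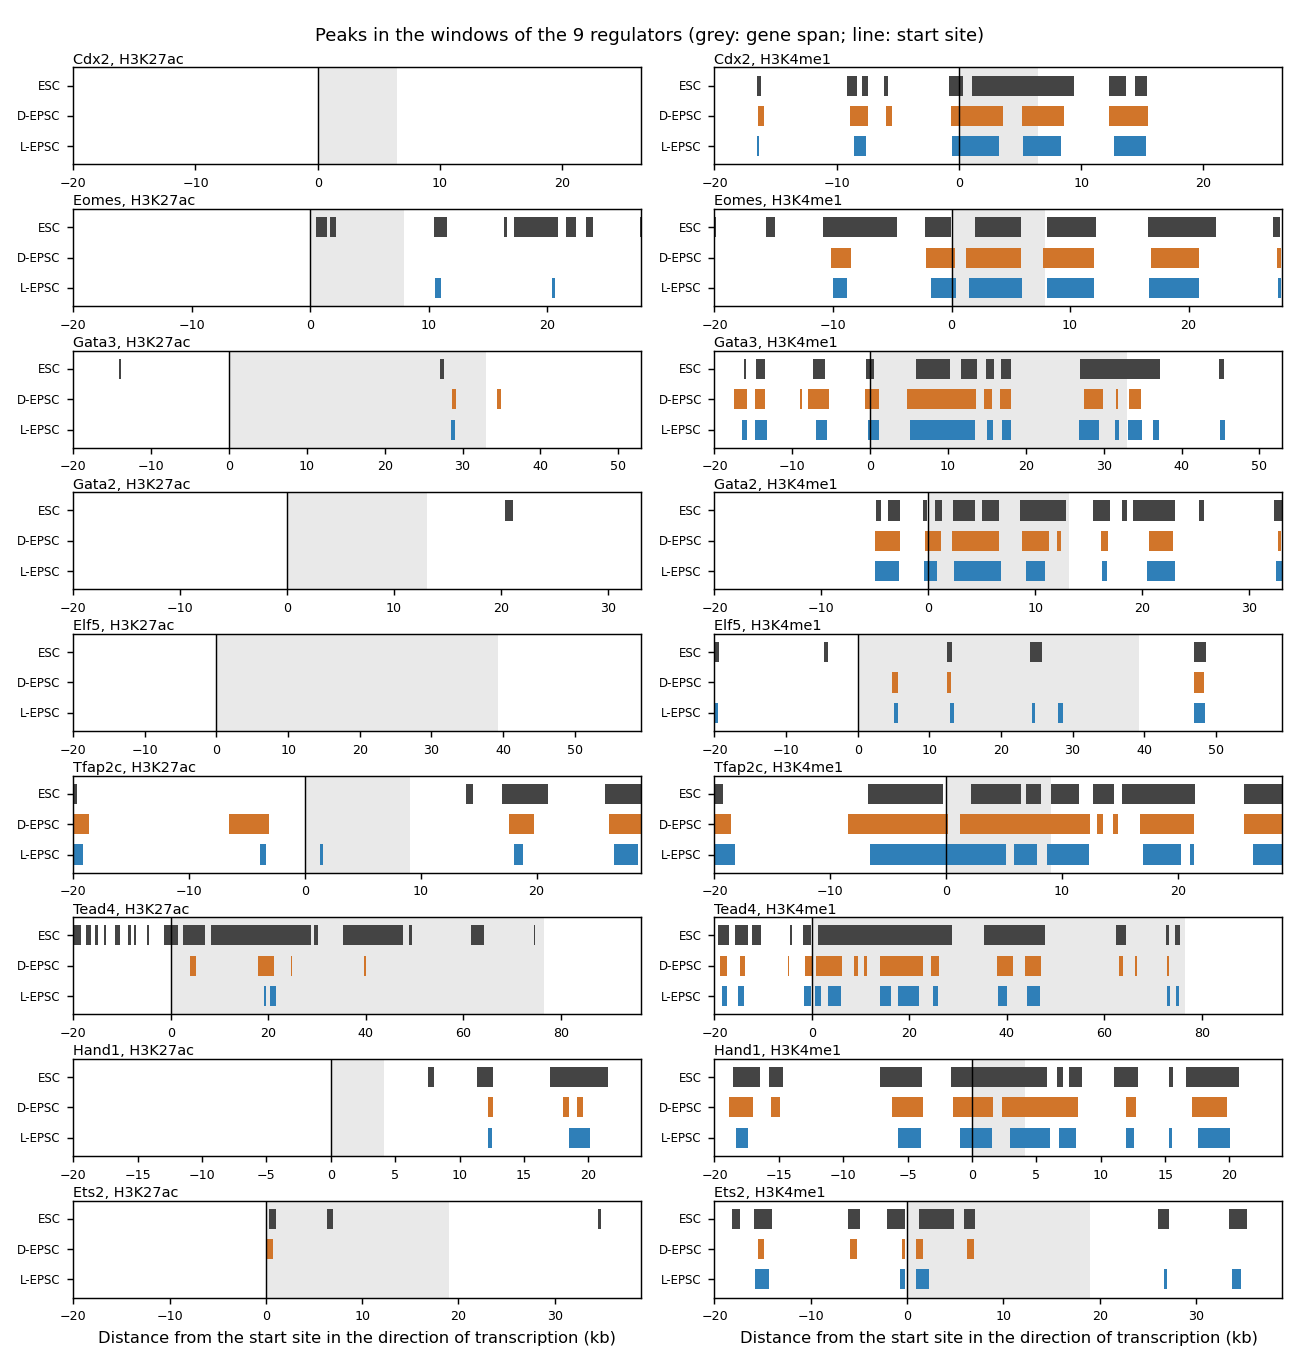
Peaks of H3K27ac (left) and H3K4me1 (right) in the window of each gene, by distance from the start site in kb along the direction of transcription, with rows for ESC, D-EPSC and L-EPSC lists, grey for the gene span and a line for the start site. Peaks are cut at the window's edge. ESC acetylation filled much of Tead4, and a block 6516 to 3079 bp upstream of Tfap2c appeared in the D-EPSC row and narrowly in the L-EPSC row, without one in the ESC row.

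Across the 9 windows, the 41 H3K27ac regions were mostly of ESCs only (25, or 61%, against 53.6% of 70360 regions across the genome), and 6 (14.6%, against 21.3%) were found in all 3 states. Of those 25, Tead4 held 13 and Eomes 5. The 72 H3K4me1 regions were mostly shared by all 3 states (45, or 62.5%, against 52.7% of 124744). In bases, the Jaccard index (bases covered in both lists over bases covered in either) for H3K27ac was 0.15 between ESCs and D-EPSCs, 0.098 between ESCs and L-EPSCs and 0.33 between the EPSC states. For H3K4me1 it was 0.57, 0.51 and 0.71. Over the whole lists it was 0.30, 0.25 and 0.45 for H3K27ac and 0.58, 0.51 and 0.65 for H3K4me1, in the same order of pairs. The index depends on how many bases each list covers, and the common bases themselves were fewer between the EPSC states (6.88 kb of H3K27ac) than between ESCs and D-EPSCs (12.5 kb) or ESCs and L-EPSCs (7.68 kb).

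The joint state of the marks separated the genes further. Over all 9 windows, 33.2% of H3K4me1 bases were also under H3K27ac for ESCs, 11.6% for D-EPSCs and 7.27% for L-EPSCs. In that order, 25 of 79, 12 of 67 and 10 of 68 H3K4me1 peaks overlapped an H3K27ac peak. Tead4 alone supplied 44.243 kb of the 65.961 kb under both marks in ESCs. The whole H3K27ac lists covered 107.4 Mb, 44.4 Mb and 34.3 Mb, and the same share over all genes was not computed. At Tfap2c the share was 29.9%, 32.4% and 17.9%, the highest of the 9 in both EPSC states. At Eomes it was 24.9%, 0% and 4.72%, and at Hand1 24.8%, 7.83% and 14.7%. The plot of shares shows that Tead4 led in ESCs and Tfap2c in EPSCs.

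**Figure D4:**
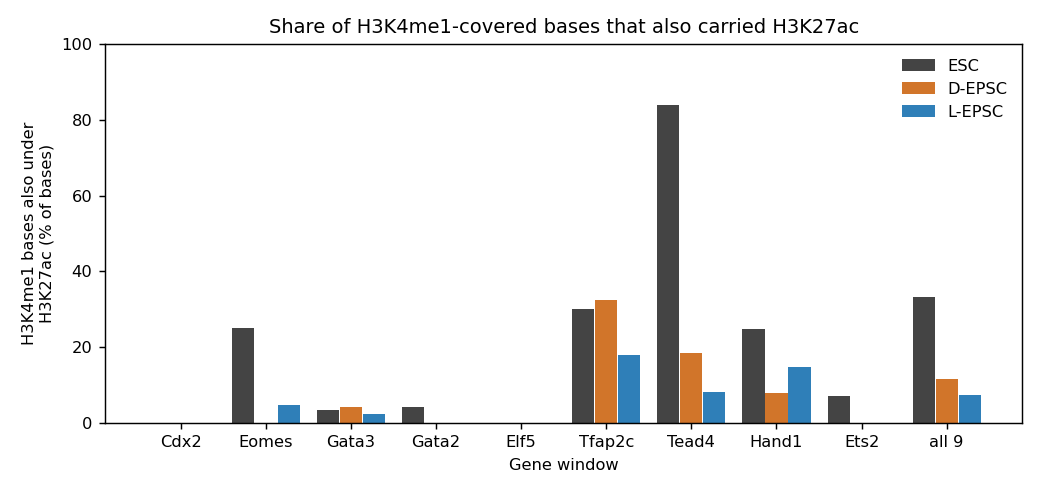
Percent of H3K4me1-covered bases in each window that were also under H3K27ac, with bars for ESC, D-EPSC and L-EPSC lists and the 9 windows summed at the right. Tead4 reached 83.9% in ESCs and 8.15% in L-EPSCs, while Tfap2c held 29.9%, 32.4% and 17.9%.

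The windows hold few other start sites. Those of Prhoxnb (Cdx2 window), U4 (Eomes), Gm13256, 4930412O13Rik, 9230102O04Rik and Gm13262 (Gata3), Dnajb8 and 1700031F10Rik (Gata2), and Gm11003 (Hand1) had no H3K27ac peak within 1 kb in any list. The pseudogene Rpl18-ps2, 12522 bp upstream of Tead4, had one in ESCs and in neither EPSC list. Peaks at Tead4, Tfap2c and Hand1 were assigned by position, and which gene a distal peak acts on is not known from the lists.

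Genes of the wider trophoblast program were read in the same way. Of 10 genes used by trophoblast stem cells (Fgfr2, Esrrb, Sox2, Bmp4, Arid3a, Klf5, Sox21, Cdh3, Satb1 and Sall4), 2 also stand in the pluripotency list. H3K27ac lay at the start site of 6 in ESCs and 5 in each EPSC state (35.7%, 35.3% and 28.8% of all start sites). Medians over the 10 were 16.3 kb, 6.32 kb and 5.03 kb, with Fgfr2, the receptor for FGF4, at 223.1 kb, 59.7 kb and 57.0 kb. Of 10 with bases, 6 were lower and 2 higher in D-EPSCs (58.8% and 8.5% of all genes), and of 9 in L-EPSCs, 6 were lower and 1 higher (76.5% and 4.33%), and the counts of lower genes were near or below those shares. The one higher in both, Sox21, a repressor of Cdx2, held 0 kb, 0.484 kb and 6.57 kb.

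Genes of differentiated trophoblast and placenta were scarcely acetylated. Of 20, among them Ascl2, Gcm1, Tpbpa, Prl3d1 and Krt7, 2 had H3K27ac at the start site in the ESC list. The D-EPSC list had 3 and the L-EPSC list 2, against 35.7%, 35.3% and 28.8% of all start sites in the 3 states. The median of the 20 windows was 0.818 kb in ESCs and 0 kb in both EPSC states. The placental genes Tpbpa, Prl3d1 and Prl2c2 had no peak of either mark in any list. None of the 20 was higher in H3K27ac in an EPSC state, while 10 of 11 with bases were lower in D-EPSCs (58.8% of all genes) and 9 of 11 in L-EPSCs (76.5%), the second count being near that of the genome.

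Paralogues of the members differed from gene to gene. Of 19, 5 had H3K27ac at the start site in ESCs, against 2 in D-EPSCs and 3 in the L-EPSC list. Over all start sites the shares were 35.7%, 35.3% and 28.8%. Of 13 paralogues with bases, 7 were lower and 1 higher in D-EPSCs (58.8% and 8.5% of all genes). Of 12 with bases in L-EPSCs, 10 were lower and none higher (76.5% and 4.33%). The 3 TEAD paralogues were also counted with the Hippo pathway genes above. Cdx1 held 7.66 kb in ESCs and 0 kb in both EPSC states, whereas Cdx2 was 0 throughout. Tfap2a held 17.5 kb, 6.36 kb and 3.57 kb, and Tfap2b and Tfap2d had none. For the sister extraembryonic lineage, 9 primitive endoderm regulators had a median of 0 kb of H3K27ac in each state. Hnf4a held the most in ESCs and D-EPSCs, with 9.23 kb, 5.08 kb and 1.65 kb over the 3 states, and a start site peak in ESCs only. Gata6, 1 of the 2 also in the paralogue list, held 1.98 kb, 0.423 kb and 2.13 kb.

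Genes with the most similar 6 values were found for the 3 members with the most H3K27ac in ESCs, by Euclidean distance over log2(kb + 1). For Tead4 they were Fam53b (distance 0.39), Cnst (0.76) and Ttc15 (0.78), and Fam53b held 45.6 kb, 5.625 kb and 2.25 kb of H3K27ac. For Eomes they were Hrc (0.34), Gnb3 (0.45) and Leprel2 (0.46). For Tfap2c they were Efcab4a (0.26), Rplp2 (0.32) and Pnpla2 (0.38), whose windows overlap each other.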

How the data were processed

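H3K4me1 and H3K27ac were profiled by ChIP-seq in ESCs, D-EPSCs and L-EPSCs, in 2 samples per mark and state with 1 input sample per state. Per the labels and the study's methods, the authors trimmed the reads (Trim Galore 0.6.3), aligned them to mm9 (Bowtie2 2.3.5, SAMtools 1.10) and ran MACS2 with its broad option and the input as control. The deposited files are 6 peak lists, 1 per state and mark, whose values are the start and end of each peak. Peak thresholds, and whether samples were pooled before calling, are not given in the sources used here. Read depth is unknown from peak positions, and both can change how many bases a list covers. The name of each list gave its state and mark.

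The 9 members and all gene lists were chosen with earlier results of these data known. Gene spans came from GENCODE M1, which is built on NCBIM37 (mm9), and 0 peaks passed the end of a chromosome. Bases and numbers of peaks were counted in each span widened by 20 kb, for the members and for all 22350 protein-coding genes. A call was 50% or less, or at least 2 times, the ESC covered bases, and a peak was at the start site when 1 bp lay within 1 kb of the outermost start. Union regions joined peaks of a mark that overlapped or touched in any of the 3 states, and peaks were kept whole past a window's edge. All 9 members were named, with the 3 widest union regions per mark in ESCs only, in both EPSC states only and in all 3 states (regions of single members were added after their values were seen), the genes starting in the windows, the 3 genes nearest in pattern to each of 3 members, and up to 3 examples per list, to which a few genes were added after their values were seen. Where a symbol stood more than once in the annotation the longest span was used. Sequences were read from the NCBIM37 genome as the 300 bases before a start or the central 300 bases of a peak stretch, and motif letters were searched on both strands.

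Neither a test nor an interval was computed, because each state and mark has 1 list. Alternatives were other windows, peaks of at least 500 bp, lists of equal length or equal covered bases, numbers of peaks, peaks nearest to the member's start, and other start site widths. The interval code was tested on simulated data, with 0 errors in 800 checks over 200 simulated sets of lists. Python 3.11.15 and numpy 2.4.6 were used, and matplotlib 3.10.9 drew the figures. All coordinates are 1-based on mm9.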

Additional observations from a re-analysis of the deposited data

Results flagged for a closer look

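At 2 genes, in windows of 20 kb on each side, the covered bases of the EPSC states lay on opposite sides of ESCs, above in D-EPSCs and below in L-EPSCs. For H3K27ac the log2 ratio over ESCs was higher in D-EPSCs than in L-EPSCs by 1.11 at Tfap2c and by 1.06 at Gata3. For H3K4me1 it was higher by 0.26 at Tfap2c. These differences were not tested, because each state has 1 list per mark, and both ratios use the same ESC list. The Gata3 values rest on 1 or 2 peaks per list, and L-EPSCs too lay above ESCs there with windows of 10 kb (0.06) or 50 kb (0.69) or the gene span alone (0.06). At Tfap2c the L-EPSC ratio for H3K27ac was above 0 by number of peaks (0.32), and for H3K4me1 with the gene span alone (0.43) and lists of equal covered bases (0.05), and the D-EPSC ratio for H3K4me1 was -0.19 by number of peaks.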

How the results depend on the processing

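Each of the 14 counts of members was recomputed under 7 or 8 alternatives, and 78 of 106 values stayed within 1.5 times the reported count. For H3K27ac, the gene span alone gave 2 members with 50% or less of the ESC bases in D-EPSCs and 3 in L-EPSCs, lists of equal length 3 in each, and lists of equal covered bases 1 in each (Tead4 every time), against 5 as reported. Peaks nearest to the member's start gave 5 in each, with Gata3 in place of Gata2. Members with at least 2 times the ESC bases were 0 as reported. In D-EPSCs they were 1 with windows of 10 kb or 50 kb or peaks of at least 500 bp (Gata3), 2 with lists of equal length (Gata3 and Ets2) and 1 with equal covered bases (Tfap2c). In L-EPSCs they were 1 with the gene span alone (Tfap2c), 1 with peaks of at least 500 bp and 1 with lists of equal length (Gata3), and 4 with equal covered bases (Eomes, Gata3, Tfap2c and Hand1). This last setting keeps only the widest ESC peaks and the whole L-EPSC list. For H3K4me1 lower members, numbers of peaks gave 0 in both EPSC states, and peaks nearest to the member's start gave 2 in D-EPSCs (Elf5 and Ets2).

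Start sites with H3K27ac in ESCs numbered 1 at the first base, 1 with lists of equal length and 0 with equal covered bases. In D-EPSCs they numbered 0 at the first base, 2 with any transcript start (Tead4 and Ets2) and 0 with equal covered bases. In L-EPSCs a width of 2500 bp and any transcript start each gave 1 (Tfap2c). H3K4me1 start sites in ESCs numbered 3 at the first base and 5 with equal covered bases. The cause of these moves was not tested beyond the construction of each setting. Of 203 recomputed log2 ratios of single members, 20 changed sign, and 1 of these had been past the 2-fold call, Tead4 H3K4me1 in L-EPSCs, which was 0.26 with numbers of peaks, against -1.32. Besides that 1, 34 moved by over 1.5 times. The Gata3 H3K27ac ratio in L-EPSCs was 0.69 with windows of 50 kb, against -0.67 as reported, and at Tfap2c it was 0.32 with numbers of peaks, against -0.82. Other turns were at Tead4 H3K4me1 in D-EPSCs (0.49 with numbers of peaks), Eomes H3K4me1 with the gene span alone (0.40 and 0.31), Cdx2 H3K4me1 with equal covered bases (0.57 and 0.38) and Elf5 H3K4me1 in L-EPSCs with numbers of peaks (0.26).

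No paired analysis was possible because each peak list stands for both samples of a state and mark, and leaving out a sample was not possible for the same reason. Covered bases depend on where a caller ends a broad peak, so a widened and a merged peak cannot be told apart, and no value carries an error.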
